A study of Homo sapiens with 6 samples.

Results

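The genes described here make 9 long noncoding RNAs: NEAT1, MALAT1, NORAD, KCNQ1OT1, H19, MIR205HG, SFTA1P, PVT1 and CYTOR. All 9 names were matched to the 58735 genes of the FPKM table, and 7 of the 9 passed the filter of a mean of at least 1 FPKM that left 12517 genes for testing. FPKM is fragments per kilobase of exon, scaled to library depth, so levels of different genes can be set side by side only roughly. The length is that of all annotated exons of a gene together, which can exceed any single transcript. It was 17693 bases for CYTOR, whose longest transcript has 7512, and 5493 bases for PVT1, whose longest has 1699. The 9 genes were chosen by name from a look at results of the same CBD and vehicle libraries, so their differences between the groups are given as a description and support nothing. The libraries came from HOK-16B, an established, immortalized line of keratinocytes (epithelial cells) from the human mouth. There were 3 libraries of cells treated with CBD (cannabidiol, a cannabis compound that does not intoxicate) and 3 of cells treated with the vehicle excipient. Both groups received an inflammatory stimulus after that pretreatment, according to the series design. The labels name neither the stimulus nor a dose or time, and no unstimulated cells were analysed here. The line is immortalized, the number in the free-text descriptions runs up to HOK-21B from sample to sample, and nothing says that the replicates were separate cultures. The p-values therefore reflect the spread among 6 samples alone, and that spread may be technical.

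Long noncoding RNAs are transcripts without a known protein product, many of which stay in the nucleus. NEAT1 is the scaffold of paraspeckles, nuclear bodies that hold RNA-binding proteins, and MALAT1 collects in nuclear speckles, where splicing factors are stored. H19 and KCNQ1OT1 are expressed from 1 parental allele of an imprinted cluster on the short arm of chromosome 11, MIR205HG is the host transcript of the epithelial microRNA miR-205, and NORAD sequesters PUMILIO proteins. NORAD is known as a mainly cytoplasmic RNA, and RNA from whole cells says nothing of location, so the word nuclear is background for these genes and not a measurement.

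Fragments counted in genes numbered 19010494 to 22158614 per CBD library and 18213784 to 21200871 per vehicle library. For a transcript 1 kb long, 3 reads equal 0.126 to 0.153 FPKM, a limit that reflects counting error alone. All 14 keratinocyte markers had a mean of at least 1 FPKM, summing to 12882 to 13467 FPKM in CBD libraries and 10568 to 12362 FPKM in vehicle libraries. Of 8 fibroblast, 7 immune, 5 melanocyte and 4 endothelial markers, 1, 1, 1 and 0 reached that level, and the sums were at most 9.41 FPKM in CBD libraries and 8.14 FPKM in vehicle libraries. The mean GC content per fragment, computed from annotated transcripts, was 50.7% to 50.8% in CBD libraries and 49.6% to 50.3% in vehicle libraries. The log2 difference between the groups followed the GC content of the transcripts (Spearman's rho = 0.67 across 12510 genes, which are not independent replicates and share the same 6 libraries). On the first principal component of all tested genes the CBD libraries lay at -12.7 to -10.3 and vehicle replicates 1 to 3 at 25.1, -0.739 and 9.36, so vehicle replicate 1 lay farthest out. The part of GC content in the results below was not tested beyond the values given with its trend removed.

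The sequences that follow show what these RNAs carry. The PUMILIO motif, spelled TGTANATA and searched on the sense strand of the longest GENCODE 29 transcript of each gene (GRCh38), occurred 15 times in the 5339 bases of NORAD, or 2.81 times per kilobase. It occurred at least once in 113 of the 912 tested long noncoding RNA genes (12.4%), and NORAD ranked 1 of the 436 with a transcript of at least 1 kb when ordered by motifs per kilobase. KCNQ1OT1 held 9 matches in 91667 bases and NEAT1 held 6 in 22743 bases, and no match was found in the other 6 genes. A match is a string of letters, not a shown binding site. The 5 stretches of NORAD that follow are shown as examples of the 15, each with its motif in capitals and 8 bases on either side. Each line is named by the transcript position of the first capital letter, counted from 1 at the 5′ end.
NORAD 761: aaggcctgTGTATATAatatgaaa
NORAD 1140: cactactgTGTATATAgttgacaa
NORAD 1241: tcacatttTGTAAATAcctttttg
NORAD 2972: ccctactgTGTATATAgcggacaa
NORAD 3284: gtatatagTGTATATAagcggaca

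MIR205HG and H19 host microRNAs, whose mature sequences (RefSeq, GRCh38.p14) are shown because the host transcript and the microRNA share a locus. The seed, bases 2 to 8, is in capitals, and the 4 seeds differ from each other. MiR-205 lies on the plus strand at chr1:209432166-209432187 (5p) and chr1:209432203-209432223 (3p), and miR-675 on the minus strand at chr11:1996800-1996822 (5p) and chr11:1996768-1996787 (3p), inside H19.
hsa-miR-205-5p: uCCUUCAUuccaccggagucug
hsa-miR-205-3p: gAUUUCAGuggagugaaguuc
hsa-miR-675-5p: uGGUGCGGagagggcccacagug
hsa-miR-675-3p: cUGUAUGCccucaccgcuca

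The first 120 bases of the longest SFTA1P transcript (693 bases) are given because SFTA1P is the one of the 9 whose groups lie farthest apart below. The next line gives the first 120 bases of the longest run, 432 bases, that CYTOR shares letter for letter with its near-copy MIR4435-2HG, so that reads from it could belong to either gene.
SFTA1P: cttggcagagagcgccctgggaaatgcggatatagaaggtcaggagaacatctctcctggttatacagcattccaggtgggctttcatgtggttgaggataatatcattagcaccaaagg
CYTOR and MIR4435-2HG: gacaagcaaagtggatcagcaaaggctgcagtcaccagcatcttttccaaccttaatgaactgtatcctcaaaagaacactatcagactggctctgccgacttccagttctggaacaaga

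By FPKM over all annotated exons, the 9 genes fell into a high and a low class of level. NORAD, MALAT1, H19, NEAT1 and MIR205HG, with means of 78.2 to 118 FPKM in either group, were the 5 highest of the 912 tested long noncoding RNA genes, and ranked 201, 203, 229, 341 and 367 among all genes of the table. PVT1 (rank 379 among the 912) and SFTA1P (rank 700) followed with means of 2.07 and 1.28 FPKM over the 6 libraries, and CYTOR and KCNQ1OT1 with 0.510 and 0.237 FPKM. In that order NORAD, MALAT1 and H19 could not be told apart beyond the spread of H19, and neither could NEAT1 and MIR205HG. Together the 9 genes took 0.423%, 0.483% and 0.4999% of the fragments in CBD replicates 1 to 3 and 0.397%, 0.464% and 0.466% in vehicle replicates 1 to 3, so the groups overlapped. That was 32.7% to 35.2% of all fragments from long noncoding RNA genes in CBD libraries and 30.4% to 33.9% in vehicle libraries.

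Against vehicle, 1 of the 7 tested genes was called with CBD, SFTA1P, and it was lower (limma on log2(FPKM + 1), Benjamini-Hochberg adjusted p under 0.05 over all 12517 genes). SFTA1P passed the filter of 1 FPKM only through its vehicle level (mean 1.96 FPKM, beside 0.602 FPKM with CBD). Without that filter it was not called (limma adjusted p = 0.134), so the call supports nothing. Over all tested genes, 44 (0.352%) were called, 12 (0.0959%) were called lower, and 31.4% had an unadjusted p under 0.05. Of the 7 tested genes 6 had a difference above 0, and their median was 0.07, beside -0.01 for all tested genes and 0.02 for the 912 tested long noncoding RNA genes. Without overlap between the groups lay 1 of the 7 tested genes, SFTA1P, beside 40.7% of all tested genes, and CYTOR of the 2 that were not tested. On fragments recovered from the FPKM values, limma-voom called 13.9% of all tested genes and again SFTA1P alone of the 7. Since the genes were chosen on these libraries, nothing is read from the shares. In bulk RNA a smaller number of cells that make a transcript and less of it per cell cannot be told apart.

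**Figure D1:**
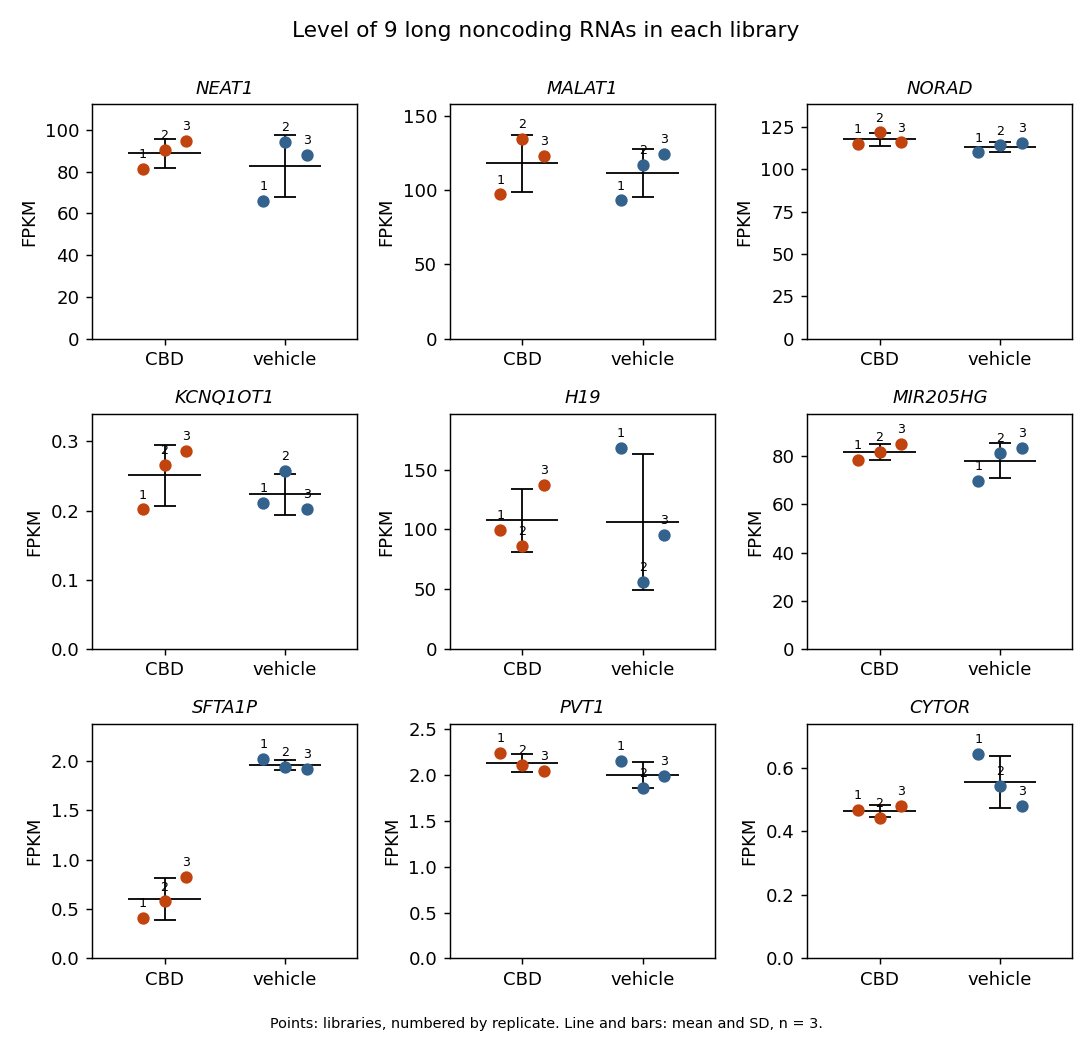
FPKM of the 9 genes in each library (y axis, from 0 in each panel), with CBD libraries on the left and vehicle libraries on the right of each panel; points are libraries numbered by replicate, lines and bars the mean and SD (n = 3). SFTA1P lies at 0.407 to 0.824 FPKM with CBD and at 1.92 to 2.02 FPKM with vehicle, CYTOR also does not overlap, and the other 7 do.

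NEAT1 covers chromosome 11 from 65422774 to 65445540 on the plus strand (GENCODE 29, GRCh38) as a single exon block of 22767 bases. Its level was 81.3, 90.5 and 94.7 FPKM in CBD replicates 1 to 3 and 65.9, 94.3 and 88.1 FPKM in vehicle replicates 1 to 3. Vehicle replicate 1 was low and the other 5 libraries overlapped. The means were 88.8 ± 6.89 FPKM with CBD and 82.8 ± 14.9 FPKM with vehicle (SD, n = 3 each), a log2 difference of 0.11 ± 0.13 (SE; 95% interval -0.20 to 0.43; limma adjusted p = 0.579). The table gives 1 value for the whole locus, so the short and long NEAT1 isoforms, of which the long one builds paraspeckles, were not separated.

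MALAT1 starts 52148 bases downstream of NEAT1 (chromosome 11, 65497688 to 65506516, plus strand) and has 8829 exonic bases. It stood at 97.1, 134 and 123 FPKM in CBD replicates 1 to 3 and at 93.1, 117 and 124 FPKM in vehicle replicates 1 to 3. The lowest library of each group was replicate 1, and the ranges were nearly the same. The means of 118 ± 19.1 FPKM with CBD and 112 ± 16.4 FPKM with vehicle differed by 0.08 ± 0.15 on the log2 scale (95% interval -0.27 to 0.43; limma adjusted p = 0.725). Without vehicle replicate 1 the sign turned for both neighbours, to -0.04 for NEAT1 and -0.04 for MALAT1, and for MALAT1 also without CBD replicate 2 (-0.02).

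The NEAT1 level was 0.837, 0.673 and 0.770 of the MALAT1 level in CBD libraries and 0.708, 0.805 and 0.709 of it in vehicle libraries, again with overlap. That level divides by all 22767 exonic bases, whichever isoform the fragments came from. NEAT1 had 44132 to 47668 fragments with CBD and 34306 to 47110 with vehicle. MALAT1 had 20448 to 27473 fragments with CBD and 18784 to 22708 with vehicle. The ratio therefore does not order the 2 RNAs by abundance. Of the 17 tested genes within 100 kb of any of the 9, 10 lie around this pair, and limma called none of the 17 (7 at an unadjusted p under 0.05, beside 31.4% of all tested genes, and 3 by limma-voom, beside 13.9%). The median difference of the 17 was 0.09, and -0.03 with the GC trend removed. EHBP1L1, an adaptor of membrane traffic, had 19.4 ± 0.711 FPKM with CBD and 14.2 ± 2.57 FPKM with vehicle (log2 difference 0.44, limma adjusted p = 0.0792). MAP3K11, a kinase of the JNK pathway, had 10.7 ± 0.253 FPKM with CBD and 8.49 ± 0.899 FPKM with vehicle (0.31, limma adjusted p = 0.0670). AP000769.1, a transcript 9718 bases from NEAT1, had 7.35 ± 0.824 FPKM with CBD and 5.98 ± 0.453 FPKM with vehicle (0.26, limma adjusted p = 0.105). FRMD8, DPF2, LTBP3, SSSCA1, FAM89B and SSSCA1-AS1, also around this pair, had differences of 0.03 to 0.20. AP000769.2 overlaps MALAT1 by 396 exonic bases, its whole exonic length, and is listed at 0, which may reflect how shared fragments were counted. No gene named TALAM1, the antisense partner of MALAT1, was found in the annotation.

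Proteins of the bodies that these RNAs mark were taken as lists. Of 28 tested paraspeckle genes 13 lay above and 15 below 0, with a median of -0.01, and limma called none. An unadjusted p under 0.05 was found for 8, beside 31.4% of all tested genes. Limma-voom called 3 lower, beside 13.9% of all tested genes in either direction. The smallest adjusted p belonged to FAM98A, an RNA-binding protein, with 8.95 ± 0.384 FPKM under CBD and 11.2 ± 0.208 FPKM under vehicle (log2 difference -0.29, limma adjusted p = 0.0547), followed by ZNF24 (-0.21, 0.0699) and SRSF10 (-0.22, 0.0938). NONO, a core paraspeckle protein named after its values were seen, had 69.5, 69.8 and 67.5 FPKM in CBD libraries and 68.6, 71.3 and 73.6 FPKM in vehicle libraries. Its partner SFPQ, named likewise, had 51.9, 48.6 and 50.7 FPKM with CBD and 47.4, 50.6 and 48.0 FPKM with vehicle, so both overlapped.

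Of 30 nuclear speckle genes 7 lay above and 23 below 0, with a median of -0.15. With the GC trend removed the median was -0.04, and the median GC content of the list was 44.9%. Limma called none of the 30, and 14 had an unadjusted p under 0.05, beside 31.4% of all tested genes. Limma-voom called 7 lower, beside 13.9% of all tested genes in either direction. The splicing factor SRSF2 had 31.6 ± 1.52 FPKM with CBD and 38.2 ± 1.44 FPKM with vehicle (-0.27, limma adjusted p = 0.0605). BCLAF1, a factor tied to transcription and splicing, had 17.7 ± 0.278 FPKM with CBD and 21.5 ± 1.497 FPKM with vehicle (-0.27, limma adjusted p = 0.0636), and the spliceosome protein RBM25 had 13.1 ± 0.328 FPKM with CBD and 15.46 ± 0.795 FPKM with vehicle (-0.22, limma adjusted p = 0.0672).

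NEAT1 and MALAT1 carry a structured end cut by RNase P, and other RNAs of the class are trimmed or degraded by the nuclear exosome. Of 27 tested genes for such processing and decay 7 lay above and 20 below 0, with a median of -0.09, or -0.05 with the GC trend removed. Limma called none, and 13 had an unadjusted p under 0.05, beside 31.4% of all tested genes. Limma-voom called 1 higher and 2 lower, beside 13.9% of all tested genes in either direction. ZFC3H1, which hands nuclear RNA to the exosome, had 9.41 ± 0.215 FPKM with CBD and 11.9 ± 1.10 FPKM with vehicle (-0.30, limma adjusted p = 0.0636). The RNase P subunits POP7 and RPP30 had opposite signs, at 0.34 (limma adjusted p = 0.0855) and -0.23 (limma adjusted p = 0.0867).

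**Figure D2:**
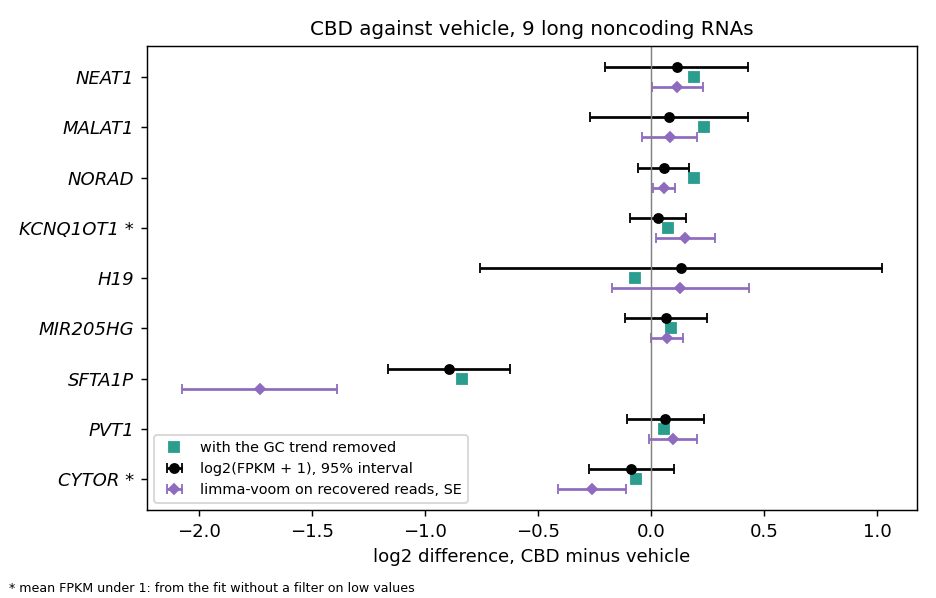
Log2 difference of CBD minus vehicle (x axis) for each of the 9 genes (y axis), as fitted by limma with its 95% interval, with the GC trend removed, and by limma-voom with its SE; stars mark the genes under 1 FPKM. The intervals of all but SFTA1P span 0, and the 3 estimates lie on the same side of 0 for all but H19.

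NORAD (chromosome 20, 36045622 to 36050960, minus strand, a single exon block) had the smallest relative spread of the 9, at a level like that of MALAT1. Its level was 115, 122 and 116 FPKM in CBD replicates 1 to 3 and 110, 114 and 115 FPKM in vehicle replicates 1 to 3. The highest library exceeded the lowest by a factor of 1.11, and the spread within groups ranked 894 of the 912 tested long noncoding RNA genes, where rank 1 is the widest. The median level of those 912 genes was 1.81 FPKM, far under that of NORAD. The means of 118 ± 3.62 FPKM with CBD and 113 ± 2.86 FPKM with vehicle gave a log2 difference of 0.06 ± 0.05 (95% interval -0.06 to 0.17; limma adjusted p = 0.446). With the GC trend removed the difference was 0.19 (limma adjusted p = 0.195).

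NORAD is known to bind PUMILIO proteins, whose targets include genes of chromosome segregation. Of 16 tested partners and genome stability genes 3 lay above and 13 below 0, with a median of -0.14, or -0.05 with the GC trend removed. Limma called none, and 7 had an unadjusted p under 0.05, beside 31.4% of all tested genes. Limma-voom called 2 lower, beside 13.9% of all tested genes in either direction. CENPE, a kinetochore motor, had 7.96 ± 0.148 FPKM with CBD and 10.3 ± 1.41 FPKM with vehicle (-0.33, limma adjusted p = 0.0778). E2F3, a cell cycle transcription factor, differed by -0.18 (limma adjusted p = 0.0938) and SMC3, a cohesin subunit, by -0.23 (limma adjusted p = 0.0953). Of the tested neighbours of NORAD, SCAND1 had 22.9 ± 1.94 FPKM with CBD and 15.0 ± 3.86 FPKM with vehicle (0.60, limma adjusted p = 0.0862; 0.37 with the GC trend removed). EPB41L1 differed by 0.20 and PHF20 by -0.11.

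H19 (chromosome 11, 1995176 to 2001470, minus strand, 2897 exonic bases) varied most among the highly expressed members. Its level was 99.8, 86.2 and 137 FPKM in CBD replicates 1 to 3 and 168, 56.0 and 95.2 FPKM in vehicle replicates 1 to 3. The highest and the lowest of the 6 values were both vehicle libraries, and the CBD values lay between them. These values rest on 5781 to 8214 fragments with CBD and 3560 to 11131 fragments with vehicle, so counting error is small beside the spread. The means of 108 ± 26.5 FPKM with CBD and 106 ± 56.9 FPKM with vehicle gave a log2 difference of 0.13 ± 0.38 (95% interval -0.76 to 1.02; limma adjusted p = 0.830). The sign turned with the GC trend removed (-0.07), without CBD replicate 3 (-0.06) and without vehicle replicate 2 (-0.26), and the difference reached 0.53 without vehicle replicate 1.

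Within groups the SD of H19 was 0.61 log2 units, ranking 161 of the 12517 tested genes and 6 of the 912 tested long noncoding RNA genes. MALAT1 ranked 1105, NEAT1 1333, SFTA1P 3148, MIR205HG 5002, PVT1 9769 and NORAD 11526 of the 12517. The SD is on the log2(FPKM + 1) scale, which compresses the spread of low genes, so the ranks of SFTA1P and PVT1 understate theirs. The median was 0.177 log2 units for long noncoding RNA genes and 0.0886 for the other tested genes. Their median levels were 1.81 and 7.03 FPKM, and the spread of the 2 classes was not compared at equal level. H19 and NORAD thus stood near opposite ends of the spread at nearly the same mean level.

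**Figure D3:**
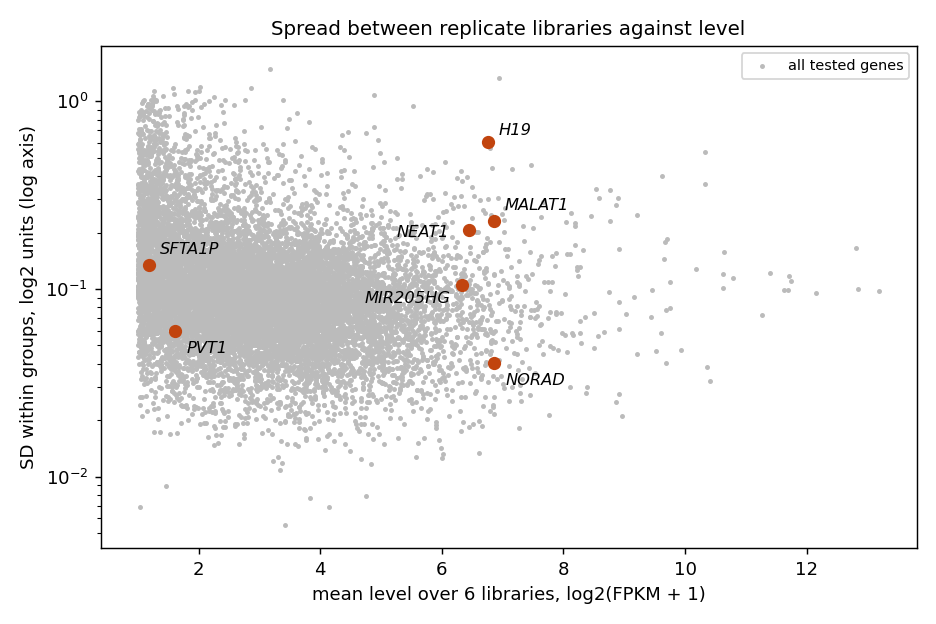
SD within groups in log2 units (y axis, log scale) against the mean level over the 6 libraries in log2(FPKM + 1) (x axis), with grey points for all 12517 tested genes and red points for the 7 tested members. H19 (0.61) lies at the top and NORAD (0.04) at the bottom at almost the same level.

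H19 shares an imprinting control region with IGF2, the insulin-like growth factor gene. IGF2, named after its values were seen, had 0, 0 and 1 reads in CBD replicates 1 to 3 and 0, 0 and 0 in vehicle replicates 1 to 3, where 3 reads would be 0.0180 to 0.0219 FPKM. It was thus under the floor in all 6 libraries while H19 stood at 56.0 FPKM or more in each. MIR675, the microRNA gene inside H19, had 0 reads in all 6 libraries, though these libraries were not made for small RNA. All 73 of its bases are also exonic in H19. How shared fragments were counted is not known here, so the 0 says nothing of its level.

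MRPL23, a mitochondrial ribosomal protein gene 10654 bases from H19, had 7.52, 8.08 and 11.9 FPKM in CBD libraries and 5.68, 13.2 and 10.04 FPKM in vehicle libraries (log2 difference -0.02, limma adjusted p = 0.963). Among vehicle libraries it was lowest in replicate 1 and highest in replicate 2, the reverse of H19. Among CBD libraries both genes were highest in replicate 3.

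KCNQ1OT1, antisense to the potassium channel gene KCNQ1, silences genes of its imprinted domain, CDKN1C among them, on the allele that makes it. It is an unspliced transcript of 91667 bases (chromosome 11, 2608328 to 2699994, minus strand) and was measured at 0.202, 0.266 and 0.286 FPKM in CBD libraries and 0.211, 0.257 and 0.202 FPKM in vehicle libraries. At that length the values rest on 441, 564 and 541 fragments with CBD and 442, 518 and 363 with vehicle. The groups overlapped, and the log2 difference in the fit without a filter was 0.03 ± 0.05 (95% interval -0.09 to 0.16; limma adjusted p = 0.784). By limma-voom, without the flattening by the added 1, it was 0.15 ± 0.13 (adjusted p = 0.639). KCNQ1 shares 121 exonic bases with it and had 13 to 26 reads per CBD library and 9 to 19 reads per vehicle library. The span of KCNQ1, 2444684 to 2849110 on the plus strand, holds all of KCNQ1OT1. The strand setting of the counts is not given in the sources used here. Whether fragments of unspliced KCNQ1 RNA were counted as KCNQ1OT1 was not tested.

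CDKN1C, an inhibitor of cyclin-dependent kinases, stood at 31.3, 34.002 and 30.9 FPKM in CBD libraries and 16.8, 20.1 and 16.7 FPKM in vehicle libraries. The groups did not overlap, and it rose by 0.81 ± 0.08 on the log2 scale (limma adjusted p = 0.0452; 0.59 with the GC trend removed). Over 15 alternatives the difference lay between 0.59 and 0.89, and 7 of them ended the call (adjusted p of 0.00302 to 0.198). Those were no filter, no intensity trend, the replicate block, and the omission of CBD replicate 1, 2 or 3 or vehicle replicate 3. CDKN1C was the only called gene of the 15 tested in the list for its cluster, of which 13 lay above and 2 below 0. That list follows the region and was not limited to genes known to be imprinted (it holds CTSD and LSP1). An unadjusted p under 0.05 was found for 7, beside 31.4% of all tested genes. Limma-voom called 6 higher, beside 13.9% of all tested genes in either direction. The median of that list was 0.24, and 0.06 with the GC trend removed, at a median GC content of 62.8%. KCNQ1OT1, from the same domain, had a difference of 0.03 beside the 0.81 of CDKN1C. The added 1 flattens the difference of KCNQ1OT1, which is low, more than that of CDKN1C. By limma-voom the differences were 0.15 for KCNQ1OT1 and 0.84 for CDKN1C. A test of that contrast was not run.

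**Figure D4:**
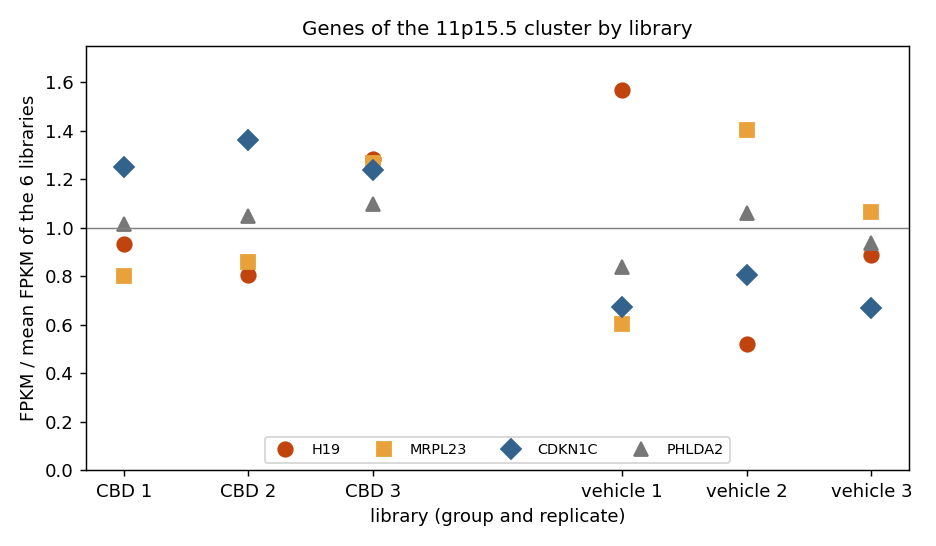
FPKM of H19, its neighbour MRPL23, CDKN1C and PHLDA2 (another gene of the imprinted cluster, chosen after its values were seen) in each library, divided by the gene's mean over the 6 libraries (y axis, from 0), with CBD libraries on the left. CDKN1C lies at 1.24 to 1.36 with CBD and at 0.669 to 0.806 with vehicle, while H19 runs from 0.805 to 1.28 with CBD and from 0.523 to 1.57 with vehicle.

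MIR205HG (chromosome 1, 209428820 to 209432838, plus strand, 3518 exonic bases) had 78.4, 81.8 and 85.2 FPKM in CBD replicates 1 to 3 and 69.9, 81.3 and 83.5 FPKM in vehicle replicates 1 to 3. The lowest value was vehicle replicate 1, and the other 5 libraries overlapped. The means of 81.8 ± 3.36 FPKM with CBD and 78.2 ± 7.30 FPKM with vehicle differed by 0.07 ± 0.08 on the log2 scale (95% interval -0.11 to 0.25; limma adjusted p = 0.565), and by -0.01 without vehicle replicate 1. MIR205, the hosted microRNA gene, was counted at 42, 83 and 85 reads with CBD and 91, 95 and 49 reads with vehicle (log2 difference -0.23, limma adjusted p = 0.649). It shares 39 exonic bases with its host, so those reads may come from the host transcript. TP63, the transcription factor of stratified epithelium, named after its values were seen, had 61.9, 62.1 and 59.6 FPKM with CBD and 59.6, 55.6 and 58.4 FPKM with vehicle.

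SFTA1P (chromosome 10, 10784437 to 10794980, minus strand, 824 exonic bases in 5 blocks) is named as a surfactant-associated pseudogene, is annotated as a long intergenic noncoding RNA and is known from lung. It had 0.407, 0.577 and 0.824 FPKM in CBD replicates 1 to 3 and 2.02, 1.94 and 1.92 FPKM in vehicle replicates 1 to 3. The groups did not overlap, and the vehicle values lay close together while the CBD values spread. They rest on 8, 11 and 14 reads with CBD and on 38, 35 and 31 reads with vehicle, so counting error is large in each CBD library. The means were 0.602 ± 0.209 FPKM with CBD and 1.96 ± 0.0538 FPKM with vehicle, which is 3.25-fold lower.

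On the log2(FPKM + 1) scale, which understates changes of low genes, SFTA1P fell by 0.89 ± 0.11 (95% interval -1.16 to -0.62; limma adjusted p = 0.0452). It was the only gene that limma called among the 912 tested long noncoding RNA genes and had the largest fall of them. SFTA1P is among the 912 only through its vehicle level, so this place is a description and supports nothing. Limma-voom called 14 of the 912 higher and 9 lower, beside 909 higher and 837 lower of all 12517 tested genes. For SFTA1P, limma-voom on the reads, under the same filter, gave -1.73 ± 0.34 (adjusted p = 0.0164). Over 14 alternatives the difference lay between -1.73 and -0.80, with adjusted p of 0.0164 to 0.198, and 10 of them ended the call. Leaving out any library except vehicle replicate 2 ended it. The adjusted p was 0.160, 0.198 and 0.177 without CBD replicates 1, 2 and 3, and 0.0531, 0.0225 and 0.167 without vehicle replicates 1, 2 and 3.

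PVT1 (chromosome 8, 127794533 to 128101253, plus strand, 5493 exonic bases in 21 blocks) lies 53099 bases from MYC, the growth-promoting transcription factor gene with which it is often amplified in tumours. It had 2.24, 2.12 and 2.05 FPKM in CBD libraries and 2.15, 1.86 and 1.99 FPKM in vehicle libraries, with overlap. The log2 difference was 0.06 ± 0.07 (95% interval -0.11 to 0.23; limma adjusted p = 0.561). MYC itself had 109, 105 and 103 FPKM with CBD and 101, 107 and 102 FPKM with vehicle (log2 difference 0.03, limma adjusted p = 0.684). RNU1-106P, a small nuclear RNA pseudogene inside PVT1, had 0.993 ± 0.543 FPKM with CBD and 2.09 ± 1.15 FPKM with vehicle (-0.60, limma adjusted p = 0.211), from 2, 6 and 3 reads with CBD and 4, 12 and 6 reads with vehicle.

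CYTOR, named for an effect on the cytoskeleton and known from tumours, spans chromosome 2 from 87454781 to 87636740 on the plus strand with 17693 exonic bases. Its level was 0.469, 0.442 and 0.479 FPKM in CBD replicates 1 to 3 and 0.643, 0.543 and 0.481 FPKM in vehicle replicates 1 to 3. The groups did not overlap, but CBD replicate 3 and vehicle replicate 3 were almost equal. The difference in the fit without a filter was -0.09 ± 0.08 on the log2 scale (95% interval -0.27 to 0.10; limma adjusted p = 0.638), and -0.26 ± 0.15 by limma-voom (adjusted p = 0.395). AC133644.3, which shares 436 exonic bases with CYTOR, had 4, 20 and 15 reads with CBD and 2, 1 and 3 reads with vehicle, without overlap and in the other direction (log2 difference 0.17, limma without a filter, adjusted p = 0.314). LINC01943, which shares 405 exonic bases, had 2, 0 and 4 reads with CBD and 3, 3 and 2 reads with vehicle. Of the 24 genes whose exons overlap any of the 9 genes, 18 had 0 reads in all libraries, and those with a read were these, KCNQ1, MIR205 and, in PVT1, RNU4-25P and AC103705.1. The zeros may come from how shared fragments were counted, which was not tested.

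MIR4435-2HG, the near-copy of CYTOR farther along chromosome 2 (111036776 to 111523376, minus strand), shares 3409 strings of 31 bases with it. Those are 18.7% of the strings in CYTOR and 25.2% of the strings in MIR4435-2HG, so the counts of both genes are uncertain. MIR4435-2HG had 0.922, 0.921 and 0.877 FPKM with CBD and 1.12, 1.05 and 1.07 FPKM with vehicle, also without overlap, and a log2 difference of -0.13 (limma without a filter, adjusted p = 0.551).

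Other named long noncoding RNAs and regulators were taken as 2 further lists. Of 18 tested long noncoding RNAs 9 lay above and 9 below 0, with a median of 0.03. An unadjusted p under 0.05 was found for 5 of them, beside 31.4% of all tested genes. Limma-voom called 1 higher and 1 lower, beside 13.9% of all tested genes in either direction. The lower one, CASC19, named after its values were seen, had 1.02 ± 0.0607 FPKM with CBD and 1.62 ± 0.152 FPKM with vehicle (log2 difference -0.37, limma adjusted p = 0.0663; limma-voom adjusted p = 0.00748). Limma called 1 gene, TINCR, an RNA of epidermal differentiation that GENCODE 29 lists as protein-coding, with 4.12, 4.40 and 3.94 FPKM in CBD libraries and 2.50, 2.83 and 2.42 FPKM in vehicle libraries. TINCR rose by 0.53 ± 0.07 (limma adjusted p = 0.0452). The difference was 0.37 with the GC trend removed, where the call was lost (limma adjusted p = 0.0776), and 9 of 14 alternatives in all ended the call (adjusted p of 0.00854 to 0.198), among them the omission of any library except vehicle replicate 2. Its span also holds a small pseudogene, and the strand setting of the counts is not given in the sources used here.

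Of 19 tested regulators of the 9 genes 10 lay above and 9 below 0, with a median of 0.00, and limma called none. An unadjusted p under 0.05 was found for 4, beside 31.4% of all tested genes. Limma-voom called 1 higher and 2 lower, beside 13.9% of all tested genes in either direction. IGF2BP3, an RNA-binding protein, had 5.57 ± 0.0406 FPKM with CBD and 6.83 ± 0.487 FPKM with vehicle (-0.25, limma adjusted p = 0.0670). IRF1, a transcription factor of interferon responses, had 7.06 ± 0.168 FPKM with CBD and 5.77 ± 0.450 FPKM with vehicle (0.25, limma adjusted p = 0.0718), and TEAD1, a partner of YAP, differed by -0.23 (limma adjusted p = 0.0866).

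**Figure D5:**
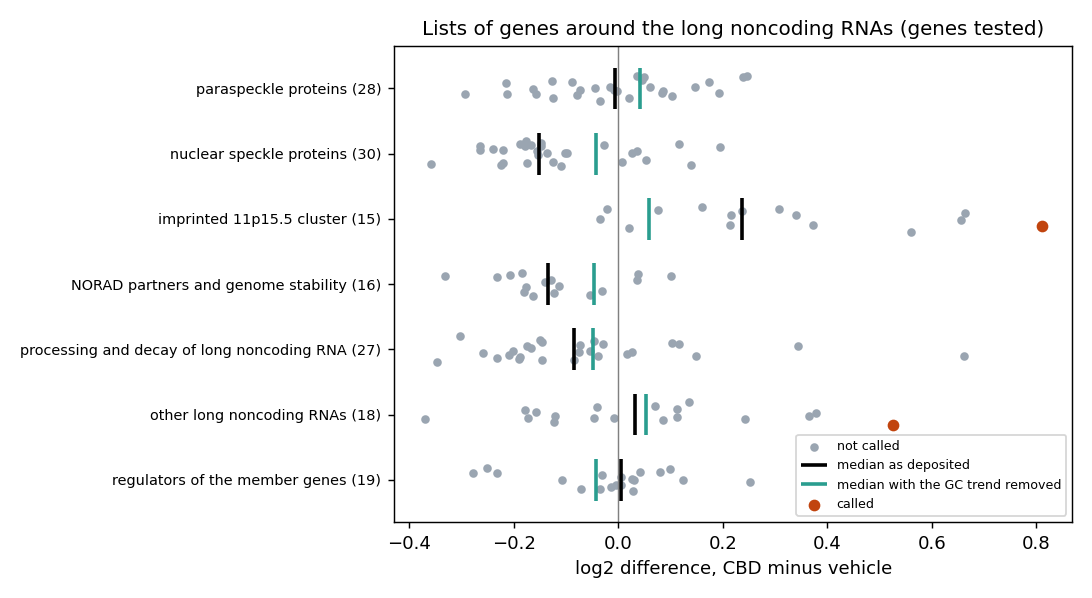
Log2 difference of CBD minus vehicle (x axis) for the tested genes of 7 lists (y axis, number tested in parentheses); grey points are genes not called, red points the called genes CDKN1C and TINCR, black lines the medians as deposited and green lines the medians with the GC trend removed. The nuclear speckle median lies at -0.15 and at -0.04 with the trend removed, and that of the imprinted cluster list, which was not limited to imprinted genes, at 0.24 and 0.06.

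Genes most like a member in pattern were found by the distance between centred log2(FPKM + 1) values over the 6 libraries, for members with a range of at least 0.5 log2 units. For NEAT1 they were ANO9 (distance 0.0455), PMS2P3 (0.0795) and DLX6 (0.0888). For MALAT1 they were MT-ND3 (0.207), GAS8 (0.207) and IL22RA1 (0.211), at distances wider than those of NEAT1. H19 had no near match, with RF00093 (0.572), DNAJC8P1 (0.581) and AL442663.4 (0.582) closest and each resting on few reads. For SFTA1P the closest were a processed pseudogene (0.315), MIR4324 (0.322) and IL1A (0.356), the interleukin 1 alpha gene, which had 6.20 ± 0.131 FPKM with CBD and 11.9 ± 1.76 FPKM with vehicle. The points of each pattern are the same 6 libraries, so these distances describe them only.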

How the data were processed

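The 6 libraries hold total RNA of HOK-16B cells, read from both ends, as the labels' protocols state. Whether RNA with a tail of A bases was selected from it is not stated here. The levels of RNAs with another kind of end, such as MALAT1 and NEAT1, may depend on that step. Groups and replicate numbers came from the labels. The table holds FPKM values per gene and library, deposited by the authors without pooling, per the file headers. Reads were aligned and counted with tools listed as HISAT2 2.0.5 (an aligner) and featureCounts 1.5.0-p3 (a read counter), per the submitters' processing notes. Which build, annotation and strand setting they used is not given in the sources used here. Values are relative to the library total, and no adjustment for GC content is named.

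All 58735 gene identifiers were matched to GENCODE 29, from which symbols, coordinates and exon lengths were taken. FPKM multiplied by exon length and by 1 factor for each library came out as whole fragments in 100% of cases (tolerance 0.01 of a read). Replicates differed by more than sampling noise, with a chi-square per gene of 3.089 to 3.225 between CBD libraries and 4.747 to 18.36 between vehicle libraries. The main fit took the same variance for a gene in both groups.

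Differences are CBD minus vehicle on log2(FPKM + 1), pseudocount 1, for the 12517 genes with a mean of at least 1 FPKM, fitted with limma 3.58.1 (R 4.3.3). Group was the sole term, the variance prior had an intensity trend, and tests were two-sided, with Benjamini-Hochberg adjustment over all tested genes and a threshold of 0.05. A single value of 3 against 3 libraries cannot go below an exact permutation p of 0.1, so such tests were not used. Alternatives were limma-voom on the recovered fragments, another pseudocount (0.1), filter, scaling or prior, removal of a loess trend in GC content (span 0.3), a replicate block, and omission of each library in turn. The fit was tested on simulated data. Tables and plots were made with pandas 2.3.3, matplotlib 3.10.9 and numpy 2.4.6 under Python 3.11.15.

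The members and lists were chosen with earlier results of these data known. Named genes are all members; for each list its called genes (up to 4), or the 3 with the smallest adjusted p where none was called; tested neighbours within 100 kb, of which 1 is not reported here; near-copies and overlapping genes; and the 3 most similar genes for members with a range of at least 0.5 log2 units. NONO, SFPQ, TP63, IGF2, CASC19 and PHLDA2 lie outside that rule.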

Additional observations from a re-analysis of the deposited data

How the results depend on the processing

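Of 131 values of the 9 genes under 15 alternatives, 114 kept their direction and their side of the threshold, 7 changed sign and 10, all of SFTA1P, lost the call. The sign changed for H19 with the GC trend removed (-0.0702) and over libraries left out (-0.26 to 0.53, including -0.0567), for MALAT1 (-0.0435 to 0.21, including -0.0187), for MIR205HG (-0.0111 to 0.12) and for NEAT1 (-0.0398 to 0.21). The 9 genes had 0 calls with the GC trend removed, no filter, no intensity trend, a pseudocount of 0.1 and the replicate block, 0 at a minimum of 5 FPKM, where SFTA1P was not tested, and 0 to 1 with a library left out. Over all genes, 44 calls became 5 with the GC trend removed, 1746 by limma-voom, 732 at a minimum of 5 FPKM, 73 under either rescaling and 1 without the intensity trend. There were 0 without a filter (limma; 4670 at an unadjusted p under 0.05) and 0 with the replicate block (3676). With a library left out there were 0 to 2351, the most without vehicle replicate 2. The 2 calls in the lists became 1, 26, 8, 0 and 0 with the GC trend removed, by limma-voom, at 5 FPKM, without a filter and without the trend, 0 with the replicate block, and 0 to 30 with a library left out. Same-numbered libraries correlated at -0.0027, 0.05 and 0.02 in their deviations, and libraries of differing numbers at -0.052 to 0.028. With 3 libraries per group these values cannot decide whether the libraries were paired. SFTA1P has few reads (8 to 38 per library over the 6 libraries). KCNQ1OT1, PVT1 and CYTOR are low in FPKM but rest on 363 to 564, 215 to 294 and 167 to 260 fragments per library. The values of CYTOR rest on reads it may share with MIR4435-2HG. The causes of these changes were not tested.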
